A study of Mus musculus with 10 samples.

Results

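The 8 genes described here regulate the sterol balance of a cell. Srebf1 and Srebf2 encode the SREBP transcription factors, Scap and the pair Insig1 and Insig2 encode the membrane proteins that hold or release them, Mylip encodes the ubiquitin ligase IDOL, and Abca1 and Abcg1 encode sterol exporters. They were taken as the rows of the deposited count table whose identifier carries one of these symbols in GENCODE mouse release 21. All 8 were found among the 18381 genes of the table, and all 8 were among the 14504 genes with enough counts to be tested. IGF1 raised Insig1 2.59-fold, Srebf1 1.93-fold and Srebf2 1.87-fold, and it lowered Abca1 1.77-fold. Scap, Insig2, Mylip and Abcg1 did not pass the test.

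The teeth were first lower molars of wild type C57BL/6JOlaHsd mouse embryos at embryonic day 14, grown for 6 h in hanging drops. The IGF1 group had mouse recombinant insulin-like growth factor 1 (IGF1, a peptide growth factor) at 750 ng per ml in PBS with 0.1% BSA, and the control group had an equal volume of that vehicle. The 2 first lower molars of an embryo were divided between the groups, which gave 5 pairs (embryos 1, 2, 3, 4 and 6) and 5 libraries of whole teeth in each group, with left and right sides balanced. Every tooth had thus been through the drop culture, and no uncultured tooth enters the comparison.

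In most animal cells, the SREBP proteins are made as precursors in the membrane of the endoplasmic reticulum. When sterols are low, Scap escorts them to the Golgi, where they are cut, and the released part enters the nucleus and activates genes for the synthesis and uptake of sterols and fatty acids. When sterols are high, Insig proteins retain Scap in the reticulum. Oxysterols activate the liver X receptors (LXR), which work in the opposite direction by inducing the exporters Abca1 and Abcg1 and Mylip, whose product marks lipoprotein receptors for degradation. Srebf1 is known as a target of both systems, and Insig1 is a classical SREBP target. These roles come from other tissues and are given as background only.

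To show the sequence next to the genes that passed the test, the promoter windows of Insig1, Srebf2, Srebf1 and Abca1 were read from RefSeq (build GRCm38.p6). A window runs from 250 bases before to 50 bases after an annotated transcription start, 5′ to 3′ on the strand of the gene. Capitals mark matches to the motifs given in the next paragraph. The Insig1 window is chr5:28071162-28071461 on the plus strand, and that of Srebf2 is chr15:82147019-82147318 on the plus strand. Srebf1 has 3 annotated windows. The one shown is chr11:60210422-60210721 on the minus strand, at a start that lies inside the gene, and it was chosen because it holds an LXR element. The Abca1 window is chr4:53159846-53160145 on the minus strand.
Insig1 promoter: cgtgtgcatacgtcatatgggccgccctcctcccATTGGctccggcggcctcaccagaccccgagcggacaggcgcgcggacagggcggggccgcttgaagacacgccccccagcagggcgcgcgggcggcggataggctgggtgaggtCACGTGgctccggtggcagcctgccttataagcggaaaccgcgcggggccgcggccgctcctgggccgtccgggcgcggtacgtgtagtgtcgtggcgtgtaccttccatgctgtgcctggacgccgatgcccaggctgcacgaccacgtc
Srebf2 promoter: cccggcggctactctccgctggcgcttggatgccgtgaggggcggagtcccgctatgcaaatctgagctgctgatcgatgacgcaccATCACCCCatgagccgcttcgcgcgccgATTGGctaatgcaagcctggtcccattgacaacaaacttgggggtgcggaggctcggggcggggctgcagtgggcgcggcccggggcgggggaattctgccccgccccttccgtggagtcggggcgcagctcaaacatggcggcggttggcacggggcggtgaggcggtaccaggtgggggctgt
Srebf1 internal promoter: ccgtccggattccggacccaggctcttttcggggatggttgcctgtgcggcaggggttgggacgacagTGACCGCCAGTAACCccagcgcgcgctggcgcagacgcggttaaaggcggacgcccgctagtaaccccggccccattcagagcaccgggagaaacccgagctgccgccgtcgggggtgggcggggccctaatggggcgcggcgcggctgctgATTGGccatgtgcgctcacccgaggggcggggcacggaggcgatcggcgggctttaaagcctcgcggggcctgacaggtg
Abca1 promoter: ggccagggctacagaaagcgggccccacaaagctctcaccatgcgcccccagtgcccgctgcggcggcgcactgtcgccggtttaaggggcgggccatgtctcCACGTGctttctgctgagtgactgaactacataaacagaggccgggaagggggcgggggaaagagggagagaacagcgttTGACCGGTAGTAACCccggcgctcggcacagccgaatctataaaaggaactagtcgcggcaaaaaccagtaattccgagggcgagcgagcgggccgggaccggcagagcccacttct

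Of the 8 genes, 7 had a window in the RefSeq table (all but Abcg1), with 12 windows in all. Motifs were searched as fixed letters on both strands, and the share of all 32851 windows with a match is given as background. The full sterol regulatory element (SRE), which is ATCACCCC followed by AC, is in 0.0913% of all windows, and its relaxed form TCACNCCAC is in 1.24%. Neither was found in any of the 12 windows, which says only that these letters are not there. The shorter SRE core ATCACCCC, added after the windows were seen, is in 0.77% of all windows and lies in the Srebf2 window from base -163 to -156 relative to the start. The E-box CACGTG (7.15% of all windows) was found in the Insig1 window from base -101 to -96 and in that of Abca1 from -147 to -142. It also lies in both windows of Scap, which overlap each other. The LXR element, which is GGTNA, any 5 bases and GGTNA again, is in 0.718% of all windows. It lies on the reverse strand of the Srebf1 window shown, as GGTTACTGGCGGTCA from base -182 to -168, and on that of the Abca1 window, as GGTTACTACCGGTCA from base -67 to -53. CCAAT, the box bound by NF-Y, is in 37.4% of all windows and was found in those of Insig1, Srebf2, Srebf1, Insig2 and Mylip. No motif match overlapped a match of another motif. A match of letters is a description and was not tested for binding. The other 2 windows of Srebf1 hold no LXR element, and the counts per gene do not tell its starts apart. Srebf1 was higher and Abca1 was lower with IGF1.

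Values are given in counts-per-million (CPM) of the library, scaled by the trimmed mean of M values, and fold changes come from edgeR's quasi-likelihood test with the embryo as a block, with Benjamini-Hochberg adjustment over all 14504 genes. The control libraries held between 2845773 and 8403151 counts and the IGF1 libraries between 3456634 and 8763113, with both teeth of embryo 1 lowest. At an adjusted p under 0.05, 1666 genes were called (11.5% of those tested), 975 of them higher (6.72%) and 691 lower (4.76%). Of the 8 genes, 3 were higher, 1 was lower and 4 were not called, with a median log2 fold change of -0.03 where the median of all genes tested was -0.0038. Epithelial and mesenchymal markers were present in every library, with summed levels of 8 epithelial markers from 1913 to 3101 CPM in the control teeth and from 2222 to 3022 CPM in the IGF1 teeth. For 8 mesenchymal markers the sums ran from 6554 to 8746 CPM and from 6045 to 8665 CPM. In such whole teeth, fewer cells of a type and less RNA per cell cannot be told apart.

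Among the 2 SREBP genes, Srebf2 (ENSMUSG00000022463, chromosome 15, 82147181 to 82205379, plus strand, GRCm38) encodes the factor that acts mainly on sterol synthesis. Its control levels were 189.3, 145.4, 161.1, 176.3 and 158.9 CPM in embryos 1, 2, 3, 4 and 6, and its IGF1 levels were 360.0, 281.4, 283.5, 325.1 and 306.6 CPM in the same order. Every IGF1 tooth was above every control tooth, and embryo 1 was highest in both groups. The mean rose from 166.2 ± 16.9 to 311 ± 32.6 CPM (SD, n = 5), a log2 fold change of 0.90 (SE 0.0609, 95% interval 0.77 to 1.04, edgeR adjusted p = 9.12e-06). The log2 ratios of the 5 embryos lay within a narrow range, from 0.81 to 0.95 (SD 0.0575).

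Srebf1 (ENSMUSG00000020538, chromosome 11, 60199089 to 60222581, minus strand) encodes the SREBP-1 isoforms, known for the control of fatty acid synthesis. It measured 63.6, 50.8, 64.7, 74.6 and 56.8 CPM in the control teeth of embryos 1, 2, 3, 4 and 6. With IGF1 the levels were 134.8, 116.7, 101.2, 128.7 and 119.6 CPM. The groups did not overlap, and the mean went from 62.1 ± 8.95 to 120.2 ± 12.8 CPM (SD, n = 5). The log2 fold change was 0.95 (SE 0.0911, 95% interval 0.75 to 1.15, edgeR adjusted p = 0.00013). The ratios varied more than those of Srebf2, with 0.64 in embryo 3 and 0.78 in embryo 4 against 1.07 to 1.19 in the others (SD 0.231). The counts are per gene, so the isoforms that start at the different windows were not told apart.

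Insig1 (ENSMUSG00000045294, chromosome 5, 28071363 to 28078662, plus strand) encodes the Insig protein that is itself induced by SREBP, and it showed the largest rise of the 8. Control levels were 35.4, 38.4, 34.0, 34.2 and 41.0 CPM in embryos 1, 2, 3, 4 and 6. IGF1 levels were 91.0, 90.7, 87.1, 96.7 and 108.5 CPM. The lowest IGF1 tooth was above the highest control tooth, and embryo 6 was highest in both groups. The mean rose from 36.6 ± 3.04 to 94.8 ± 8.39 CPM (SD, n = 5), with a log2 fold change of 1.37 (SE 0.0740, 95% interval 1.21 to 1.53, edgeR adjusted p = 1.30e-06). Its ratios per embryo ran from 1.23 to 1.49 (SD 0.0935).

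The other retention factor, Insig2 (ENSMUSG00000003721, chromosome 1, 121304353 to 121332589, minus strand), did not pass the test. It had 26.8, 38.1, 34.6, 41.0 and 27.6 CPM in the control teeth of embryos 1, 2, 3, 4 and 6 and 31.7, 44.9, 30.6, 30.8 and 24.1 CPM in the IGF1 teeth. The groups overlapped, with IGF1 above control in embryos 1 and 2 and below it in the other 3. The log2 fold change was -0.07 (SE 0.112, 95% interval -0.32 to 0.17, edgeR adjusted p = 0.730). Scap (ENSMUSG00000032485, chromosome 9, 110333288 to 110384950, plus strand), the escort of the SREBP precursors, was also not called. Control levels of Scap were 75.2, 56.1, 78.6, 94.7 and 66.2 CPM, and IGF1 levels were 76.0, 62.5, 74.3, 79.8 and 79.5 CPM. IGF1 was above control in 3 of 5 embryos, and the mean was 74.2 ± 14.4 CPM in the control and 74.4 ± 7.05 CPM in the IGF1 teeth (SD, n = 5). The log2 fold change of Scap was 0.02 (SE 0.0861, 95% interval -0.17 to 0.21, edgeR adjusted p = 0.923). The 95% intervals allow a change of up to 1.16-fold for Scap and, for Insig2, from 0.801-fold to 1.13-fold.

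Abca1 (ENSMUSG00000015243, chromosome 4, 53030787 to 53159895, minus strand) encodes the transporter that passes cholesterol to lipid-poor apolipoproteins, and it was the only one of the 8 called lower in the fit on all 5 embryos. Control teeth had 234.6, 229.8, 223.4, 258.6 and 223.5 CPM in embryos 1, 2, 3, 4 and 6. IGF1 teeth had 121.8, 182.9, 135.2, 124.5 and 104.6 CPM. Every IGF1 tooth was below every control tooth, and the IGF1 tooth of embryo 2 was the highest of its group. The mean went from 234 ± 14.5 to 134 ± 29.6 CPM (SD, n = 5), a log2 fold change of -0.83 (SE 0.105, 95% interval -1.06 to -0.59, edgeR adjusted p = 0.000752). The ratio was -0.33 in embryo 2 and -0.72 in embryo 3, and it lay between -1.09 and -0.94 in the other 3.

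Abcg1 (ENSMUSG00000024030, chromosome 17, 31057675 to 31117988, plus strand) encodes an exporter that passes sterols on to lipoprotein particles and had the lowest level of the 8. It measured 19.9, 16.8, 17.95, 22.7 and 15.3 CPM in the control teeth of embryos 1, 2, 3, 4 and 6 and 19.6, 12.4, 13.4, 14.0 and 18.3 CPM in the IGF1 teeth. It was lower with IGF1 in 4 of 5 embryos, but the groups overlapped. The log2 fold change was -0.28 (SE 0.149, 95% interval -0.61 to 0.05, edgeR adjusted p = 0.270). The lowest library held 58 counts of Abcg1, so it is the least precise of the 8. Mylip (ENSMUSG00000038175, chromosome 13, 45389742 to 45412022, plus strand), the gene of the ligase IDOL, was also lower in 4 of 5 embryos. It had 80.0, 56.1, 65.3, 66.5 and 74.5 CPM in the control teeth and 45.8, 57.4, 59.2, 54.3 and 59.7 CPM in the IGF1 teeth. The groups overlapped, through embryo 2, whose control tooth was lowest. The log2 fold change of Mylip was -0.29 (SE 0.106, 95% interval -0.52 to -0.05, edgeR adjusted p = 0.109). Without embryos 2 and 3, Mylip passed the test with a log2 fold change of -0.45 (edgeR adjusted p = 0.0253), in a fit where 4.41% of all genes tested were lower.

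For 4 of the 8 genes the groups did not overlap, 3 of them with IGF1 above control (Insig1, Srebf1 and Srebf2) and 1 below (Abca1). Over all genes tested the share without overlap was 7.25%, with 4.21% above and 3.03% below.

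**Figure D1:**
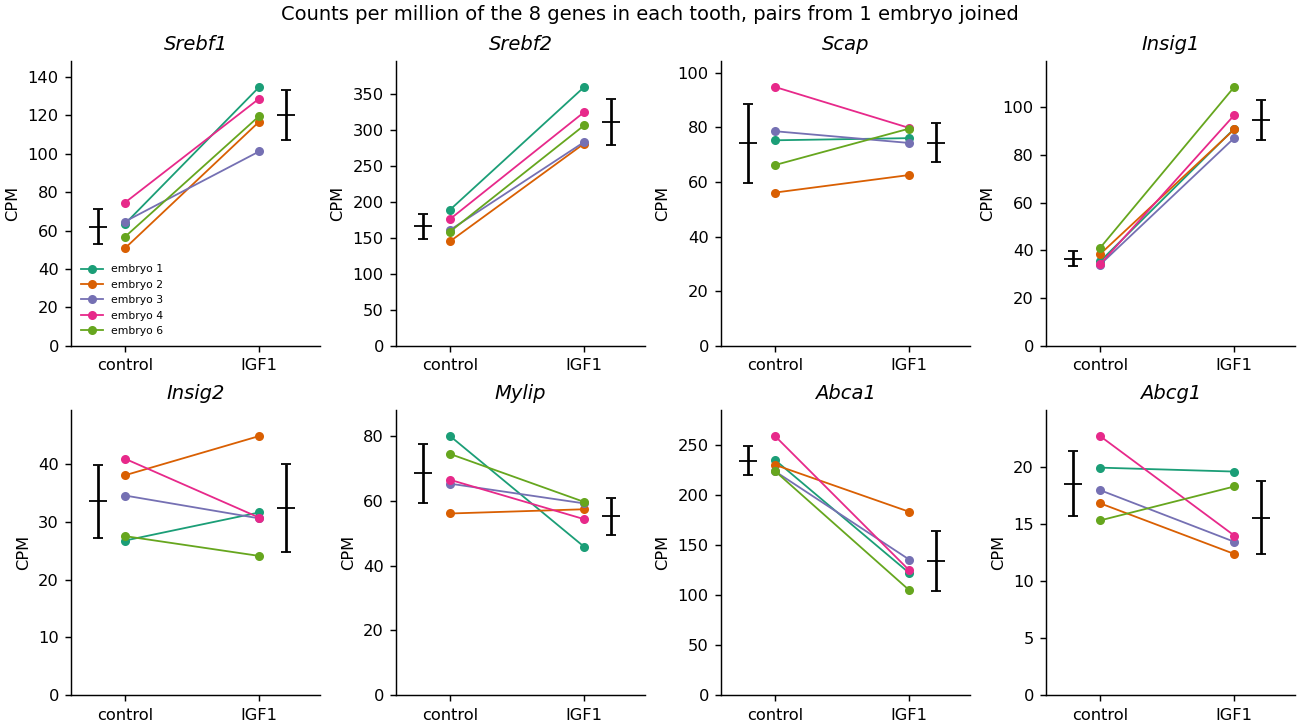
Level in CPM (vertical axes, each from 0) of the 8 genes in the control and IGF1 teeth, with a line joining the 2 teeth of each embryo and a black mark with bars for the mean and SD of 5 teeth. All lines of Srebf1, Srebf2 and Insig1 go up and all lines of Abca1 go down, while the lines of Scap, Insig2, Mylip and Abcg1 go both ways.

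The log2 ratios were above 0 in 5 of 5 embryos for Insig1, Srebf1 and Srebf2 and below 0 in 5 of 5 for Abca1. Members of a pair of related genes were compared within embryos, by an exact two-sided sign-flip permutation test of the difference between their log2 ratios, for 3 pairs. With 5 embryos the smallest p that this test can give is 0.062, so no pair could reach 0.05. Insig1 was above Insig2 in 5 of 5 embryos, by 1.12, 1.00, 1.52, 1.90 and 1.59 in embryos 1, 2, 3, 4 and 6 (mean 1.42, SD 0.368, exact p = 0.062, adjusted over the 3 pairs 0.188). Abca1 was below Abcg1 in 4 of 5 embryos, with a mean difference of -0.57 (SD 0.567, exact p = 0.125, adjusted 0.188). Srebf2 and Srebf1 differed by -0.05 on average (SD 0.176, exact p = 0.562, adjusted 0.562), with Srebf2 above in 2 embryos.

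**Figure D2:**
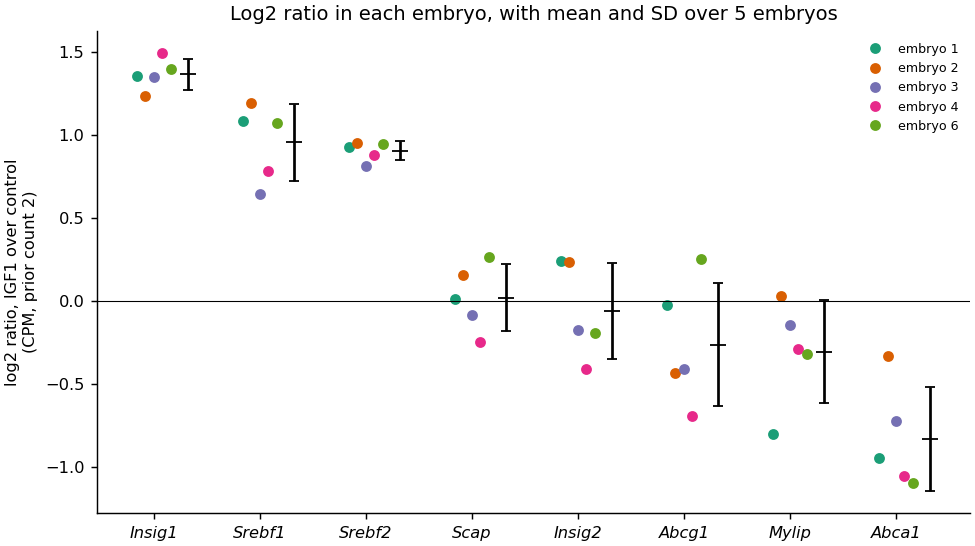
Log2 ratio of IGF1 over control in CPM with a prior count of 2 (vertical axis) for each of the 8 genes, with coloured points for the 5 embryos and a black mark with bars for the mean and SD. The points of Insig1 lie between 1.23 and 1.49 and those of Srebf2 between 0.81 and 0.95, while those of Abca1 spread from -1.09 to -0.33.

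To compare levels between genes, CPM was divided by the length of all annotated exons of the gene joined together, in kb. In the control teeth Srebf2 (23.1 ± 2.36 CPM per kb), Abca1 (22.6 ± 1.40) and Mylip (21.2 ± 2.84) were highest, and their ranges overlapped (SD, n = 5). Insig1 (11.8 ± 0.984), Srebf1 (11.0 ± 1.59), Scap (9.96 ± 1.94) and Insig2 (9.68 ± 1.81) followed, with overlap between neighbours among these 4. Abcg1 was lowest at 2.54 ± 0.394 CPM per kb, apart from the others. In the IGF1 teeth Srebf2 stood alone at 43.3 ± 4.54 CPM per kb, and Insig1 came next at 30.6 ± 2.71, also without overlap. Srebf1 (21.3 ± 2.28), Mylip (17.1 ± 1.77), Abca1 (12.9 ± 2.85), Scap (9.998 ± 0.947) and Insig2 (9.34 ± 2.19) followed, with overlap between neighbours among these 5. Abcg1 was again lowest at 2.13 ± 0.438, without overlap with Insig2. Abca1 thus went from a level close to that of Srebf2 to one below Insig1 and Srebf1 in the order of means.

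**Figure D3:**
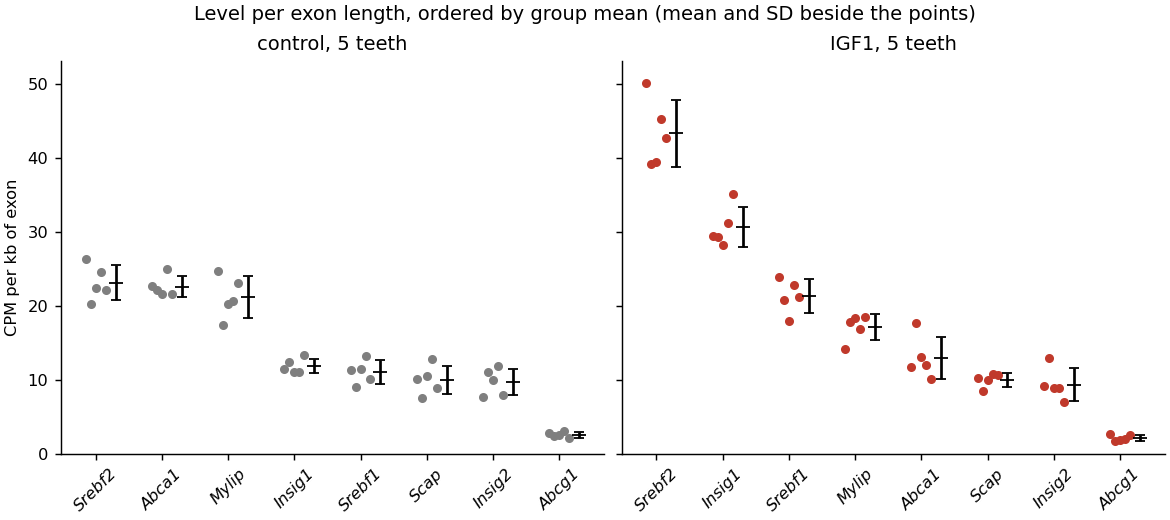
Level in CPM per kb of exon (vertical axis, from 0) of the 8 genes in the 5 control teeth and the 5 IGF1 teeth, each panel ordered by its own mean, with points for teeth and a black mark with bars for the mean and SD. Srebf2, Abca1 and Mylip lead in the control teeth, while Srebf2 and Insig1 stand above the rest in the IGF1 teeth.

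The contrast between targets of SREBP and targets of LXR was tabulated from gene lists. As background, 6.72% of all genes tested were higher and 4.76% were lower. Of 20 sterol synthesis enzymes, 19 were higher, 0 were lower and 1 was not called, with a median log2 fold change of 1.60. The largest rises were those of Mvd, the decarboxylase of the mevalonate pathway (2.23, SE 0.119, edgeR adjusted p = 1.29e-06), and Idi1, an isopentenyl isomerase (2.003, SE 0.118, edgeR adjusted p = 2.43e-06). Ebp, a sterol isomerase, was the one not called, at 0.45 (edgeR adjusted p = 0.0502). It was called in 3 of 12 alternatives, with DESeq2 size factors, without embryo 3 and without embryos 2 and 3 (edgeR adjusted p from 0.0269 to 0.0482). Among 13 genes of fatty acid synthesis, 12 were higher and 0 lower, with a median of 1.05, and 1 of the 12, Mid1ip1, lost its call in 6 alternatives (adjusted p from 0.0515 to 0.116). The desaturase Scd1 had a log2 fold change of 2.53 and the acetyl-CoA synthetase Acss2 one of 1.82, whereas the acyltransferase Gpam was not called at -0.10. All 3 further SREBP targets were higher, with a log2 fold change of 1.54 for Stard4, a sterol carrier, 1.35 for Tmem97 and 0.61 for Rdh11.

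Of 12 LXR targets outside the 8, 8 had enough counts to be tested. Of these, 1 was higher, 1 was lower and 6 were not called (median -0.11, range -0.65 to 0.47). At an unadjusted edgeR p under 0.05 there were 4 of the 8. The share called over all genes tested was 11.5%, with 6.72% higher and 4.76% lower. Lpcat3, a lysophospholipid acyltransferase, rose by 0.47 on the log2 scale (SE 0.0971, edgeR adjusted p = 0.0114). Apoe, a lipoprotein component, had a log2 fold change of -0.42 (SE 0.0911, edgeR adjusted p = 0.0141). Neither call held without the embryo block (edgeR adjusted p = 0.0799 for Lpcat3 and 0.0502 for Apoe), and that of Lpcat3 was also lost without embryo 4 (0.0537). Apoc1, Abcg5, Abcg8 and Mlxipl were not tested for want of counts. With Srebf1, Mylip, Abca1 and Abcg1 added, 12 LXR targets were tested, of which 2 were higher, 2 were lower and 8 were not called, with a median of -0.14. Per embryo, the median log2 ratio of the sterol synthesis enzymes was 1.54, 1.39, 1.51, 1.80 and 1.55 in embryos 1, 2, 3, 4 and 6, and that of these LXR targets was -0.10, -0.10, -0.28, -0.25 and 0.02. The sterol enzymes were above the LXR targets in 5 of 5 embryos, by 1.70 on average (SD 0.228). Each gene outside the 8 was put in only 1 list, also where both systems may act on it. How far the contrast depends on this assignment was not tested.

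Of 17 genes of SREBP processing and Insig turnover, 2 were higher, 1 was lower and 14 were not called (median 0.07), where 11.5% of all genes tested were called. Vcp, an ATPase that extracts proteins from the reticulum, had a log2 fold change of 0.32 (edgeR adjusted p = 0.00897), which was not past the threshold without embryo 6 (0.0516). Sec24a, a coat protein of transport vesicles, had one of 0.29 (edgeR adjusted p = 0.0285), and lost its call in 4 of 12 alternatives (adjusted p from 0.0891 to 0.140). Mbtps1, the first of the proteases that cut SREBP, fell from 338 ± 13.5 to 274 ± 26.0 CPM (SD, n = 5), a log2 fold change of -0.31 (edgeR adjusted p = 0.0156), and was not past the threshold without embryos 2 and 3 (edgeR adjusted p = 0.0795). Of the LXR receptors, partners and corepressors, 5 were tested and 0 were called by edgeR, by DESeq2 or by limma (median -0.04), with 0 at an unadjusted edgeR p under 0.05, and Rxrg was not tested. Of the oxysterol enzymes, 4 were tested and 0 were called by these tools (median 0.08), again with 0 at an unadjusted p under 0.05. Nr1h3, which encodes LXR alpha and stands among the LXR targets, was near the limit of detection, at 1.64 ± 0.536 CPM in the control and 1.73 ± 0.385 CPM in the IGF1 teeth (SD, n = 5).

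Of 13 genes of sterol uptake, lysosomal exit and storage, 3 were higher, 0 were lower and 10 were not called (median -0.0008). Among all genes tested, 6.72% were higher and 4.76% were lower. Lrp8, a lipoprotein receptor and a known substrate of IDOL, rose from 19.4 ± 3.69 to 43.1 ± 7.06 CPM (SD, n = 5), a log2 fold change of 1.15 (edgeR adjusted p = 0.000235). Scarb1, a receptor for high density lipoprotein, rose from 48.4 ± 4.12 to 102 ± 10.6 CPM, a log2 fold change of 1.08 (edgeR adjusted p = 3.84e-05). The third, Soat1, an acyltransferase that esterifies cholesterol for storage, is named because it completes the count, with 0.44 (edgeR adjusted p = 0.0141). It was not called without the embryo block (edgeR adjusted p = 0.0656) or without embryos 2 and 3 (0.108). Vldlr, a receptor also known as a substrate of IDOL and named after its values were seen, was not called at 0.20 (edgeR adjusted p = 0.516). Its IGF1 teeth ran from 81.7 to 208 CPM while its control teeth ran from 95 to 103 CPM. These are RNA levels, and the receptor proteins on which IDOL acts were not measured.

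**Figure D4:**
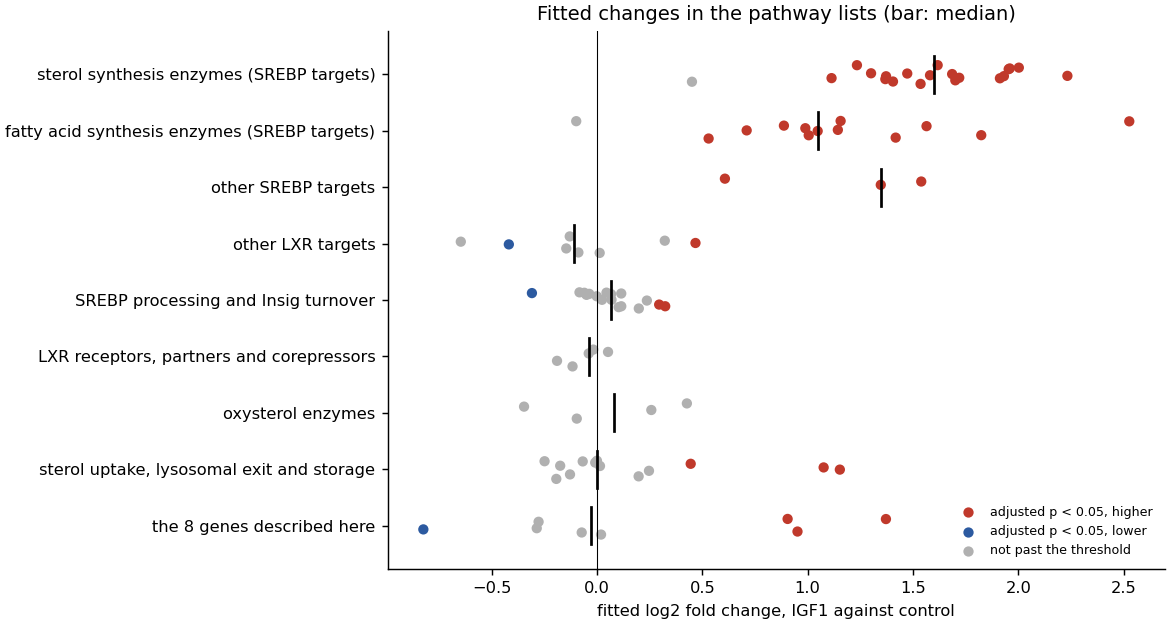
Fitted log2 fold change of IGF1 against control (horizontal axis) of each tested gene in the 8 pathway lists and of the 8 genes described here, with red for higher and blue for lower at an adjusted p under 0.05, grey for not called, and a black bar for the median. The SREBP target lists lie to the right with medians of 1.60, 1.05 and 1.35. The medians of the other lists lie around 0, while the sterol uptake list spans -0.25 to 1.15.

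For each of the 4 genes that passed the test, the 3 protein coding genes with the most similar log2 ratios over the 5 embryos were tabulated by the root mean square difference, among 11952 genes with a mean of at least 5 CPM. Among those closest to Insig1 were Sc5d (0.0923), a sterol desaturase, and Fads2 (0.117), a fatty acid desaturase, both from the SREBP target lists. Closest to Srebf2 were the phosphatase gene Pgp (0.0951), Mybl2 (0.142), a transcription factor of the cell cycle, and Cdc6 (0.143), a replication licensing factor. For Srebf1 they were Fkbp11 (0.112), Srebf2 (0.166) and Pde9a (0.185), and for Abca1 they were Ezh1 (0.129), Abtb1 (0.170) and Igf1r (0.230), the gene of the IGF1 receptor. The measure rests on 5 embryos that are shared by all genes, and it is a description only.

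Marker lists of other responses and cell types were tabulated too. For comparison, 11.5% of all genes tested were called, 6.72% higher and 4.76% lower. Of 14 hypoxia response genes tested, 13 were higher (median 1.61), with a summed level from 942 to 1444 CPM in the control teeth and from 1827 to 6269 CPM in the IGF1 teeth. Per embryo their median log2 ratio was 0.53, 2.56, 2.42, 1.03 and 0.80 in embryos 1, 2, 3, 4 and 6, so that embryos 2 and 3 stood above the others. Without embryos 2 and 3, the log2 fold change was 1.42 for Insig1, 0.97 for Srebf1, 0.91 for Srebf2 and -1.04 for Abca1, all past the threshold with edgeR. Of 6 erythroid markers tested, 5 were lower (median -0.54), with sums from 594 to 1011 CPM in the control and from 424 to 663 CPM in the IGF1 teeth. Among 9 macrophage markers tested (median -0.16), Csf1r was lower and the sums ran from 93.3 to 130 CPM and from 83.7 to 120 CPM. Among 8 endothelial markers (median -0.21) Cdh5 was lower, with sums from 376 to 431 CPM and from 306 to 403 CPM. Their median log2 ratio was -0.13, -0.29, -0.48, -0.02 and -0.22 in embryos 1, 2, 3, 4 and 6. Krt5 was higher among the 8 epithelial markers (median -0.05), and Pdgfra and Vim were lower among the 8 mesenchymal ones (median -0.11). The median log2 ratio of the mesenchymal markers was -0.02, -0.15, -0.39, -0.06 and -0.25 in the same order of embryos. Of 5 glia markers, 2 had enough counts to be tested, and 0 of these were called by edgeR, with 0 at an unadjusted p under 0.05 (sums from 72.5 to 96.5 CPM and from 67.4 to 80.5 CPM). The part of the hypoxia response and of cell composition in the changes of the 8 genes was not tested.

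All 12 alternatives of filter, scaling, test and embryos used kept the calls of Insig1, Srebf1, Srebf2 and Abca1, with log2 fold changes from 1.34 to 1.42, from 0.89 to 1.03, from 0.89 to 0.92 and from -1.04 to -0.76. Scap, Insig2 and Abcg1 were called in 0 of the 12, and Mylip in 1.

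**Figure D5:**
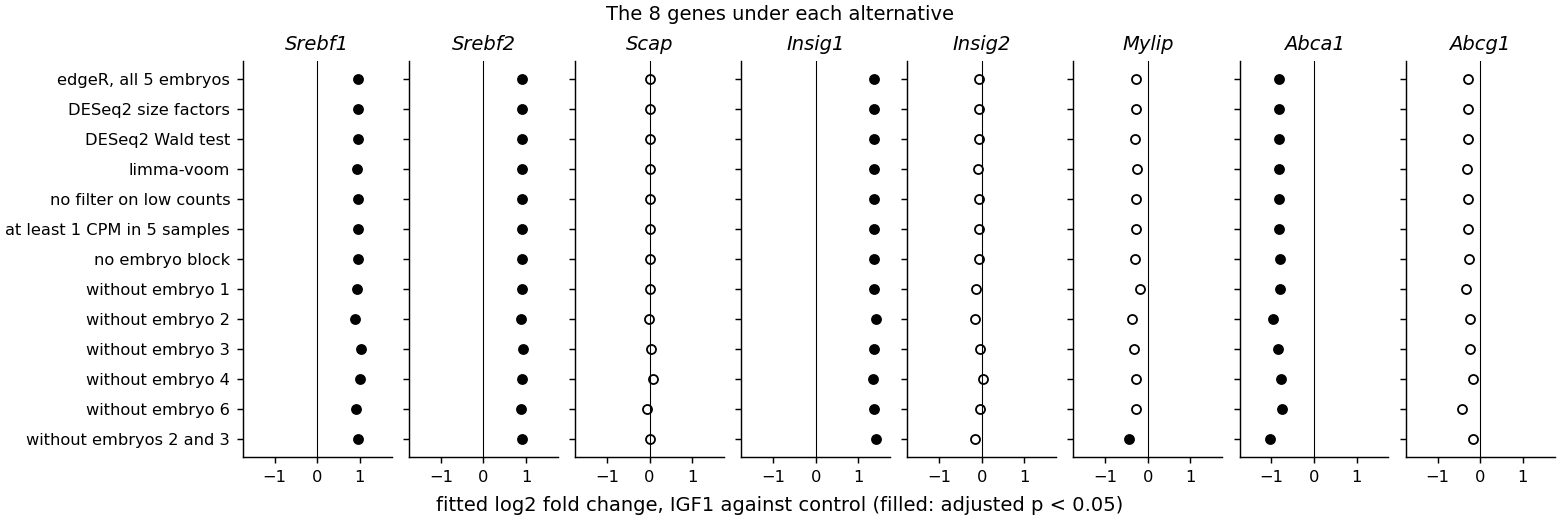
Fitted log2 fold change (horizontal axes) of the 8 genes under the test used here (top row) and 12 alternatives, with filled points for an adjusted p under 0.05. The points of Insig1, Srebf1, Srebf2 and Abca1 are filled in every row, those of Scap, Insig2 and Abcg1 are open in every row, and Mylip is filled only without embryos 2 and 3.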

How the data were processed

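RNA was sequenced from 5 IGF1 and 5 control molars, grouped by their labels. The paper that accompanies the series describes a different experiment. The authors deposited 1 table of estimated counts per gene, not normalized, made with Salmon 0.99.0 on GRCm38 after FastQC 0.11.8 and Trimmomatic 0.39, per the submitters' processing notes. The transcript set, the use of strand and the filter are not given in the sources used here. The table holds 18381 genes with at least 10 counts each over all samples. Symbols were found for 18287 identifiers in GENCODE mouse release 21, and 94 had none. Salmon can split reads between paralogs and overlapping genes, so such counts are estimates. Values were whole numbers, so rounding changed none.

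Counts were filtered with filterByExpr, scaled by TMM and tested with edgeR 4.0.16 (glmQLFit and glmQLFTest, R 4.3.3) with the embryo as a block, because the labels give each embryo number to 1 control and 1 IGF1 tooth. As a check of the pairing, the deviations from the group mean of both teeth of embryos 1, 2, 3, 4 and 6 correlated at 0.319, 0.208, -0.0389, 0.170 and 0.313, and the highest correlation of the IGF1 tooth with a control tooth of another embryo was 0.0012, 0.0443, 0.232, 0.0815 and -0.0126. The own pair was thus above the highest other pair in embryos 1, 2, 4 and 6, but below it in embryo 3. The pairing of embryo 3 rests on the labels alone. Replicates differed by more than sampling noise (chi-square per degree of freedom 4.52 to 18.2). Depth had a median of 6899838 counts in control and 7080190 in IGF1 samples. Alternatives were DESeq2 1.42.0 (size factors, Wald test), limma-voom 3.58.1, other filters, no block, and leaving out embryos. Figures and tables used Python 3.11.15. The procedure was also run on simulated counts. These held no differences between embryos, so that run did not test the use of the block.

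The 8 genes, the lists and the tests were chosen with earlier results of these data known. Named genes include the 8, and the 2 largest rises and falls past the threshold in each pathway list. For each of the 8 that passed, they include genes among the 3 with the closest ratios. Others are named to complete a count, as not called or not tested, for a call that changed, or as called markers. Nr1h3 is named for its low level, and Vldlr was named after its values were seen. Some genes of these pathways are not reported here.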

Additional observations from a re-analysis of the deposited data

Results flagged for a closer look

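In the IGF1 group the tooth of embryo 3 stood apart for Idi1, an enzyme of sterol synthesis, with 231 CPM against 149 to 167 CPM in the other 4 teeth. Its gap to the nearest tooth was 0.789 of the range of the group, above Dixon's critical value of 0.71 for 5 samples. It was the only one of 42 groups of 5 teeth with such a tooth, where about 2.1 would by chance. None of the groups of the 8 sterol regulators had one.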

How the results depend on the processing

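Depth limits Abcg1 most, with 58 counts in its lowest library, and leaving out an embryo leaves 4 pairs. Without the replicate block, 887 genes were called in place of 1666 and 0 other LXR targets in place of 2, and the calls of the 8 genes did not change (Abca1 -0.80, edgeR adjusted p = 0.0018). Leaving out 1 embryo gave 986 to 1602 calls (986 without embryo 4, 994 without embryo 6). It gave 1 to 2 other LXR targets (1 without embryo 4) and 1 to 4 genes of SREBP processing (1 without embryo 6). The log2 fold change of Scap turned to -0.017 without embryo 2 and to -0.0479 without embryo 6 (range -0.0479 to 0.0895), and that of Insig2 turned to 0.0187 without embryo 4 (range -0.16 to 0.0187). Neither gene was called in any setting. Mylip passed only without embryos 2 and 3 (-0.45, edgeR adjusted p = 0.0253, range of adjusted p over the 12 alternatives 0.0253 to 0.283). In the lists, Lpcat3, Apoe, Mbtps1, Vcp, Sec24a, Soat1 and Mid1ip1 lost their calls in 1 to 6 alternatives each. Ebp and Lrp1 gained one in 3 each, and Sec23a in 2. The cause of these shifts was not tested. The other calls in the pathway lists did not change. The median over all genes lay between -0.0069 and -0.0003 under the alternatives.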
